A study of Arabidopsis thaliana with 6 samples.

Results

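The CRISPR allele of *FIO1* that the labels call *fio1-2* was compared with the wild type Col-0 of Arabidopsis. The members were chosen by title, and they were the 2 libraries titled *fio1-2* and the 2 titled Col-0, 4 of the 6 RNA-seq libraries of the series. The other 2 libraries came from *fio1-1*, a splice-site allele of the same gene, and were used for the shared error estimate and for a direct test between the alleles. All plants were untreated 14-day-old seedlings in the Columbia background and were grown in long days. The labels describe soil and the methods of the study describe agar plates, so the growth medium is uncertain. Each library was made from the total RNA of a pool of seedlings. The study calls the 2 libraries of a line biological replicates, but does not state whether their pools were grown separately. The p-values below rest on the spread between such pools, shared over genes, and do not measure that between plants. In the text of the study the CRISPR allele is *fio1-5*, and *fio1-2* there is an insertion line, but the name in the labels is kept here.

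FIO1 is the plant relative of human METTL16, an enzyme that places a methyl group on adenosines of U6 small nuclear RNA and of some mRNAs, the mark known as m6A. U6 pairs with the start of introns during splicing, and m6A on mRNA can alter its splicing, stability and translation. Loss of FIO1 in Arabidopsis is known for early flowering and for an altered period of the circadian clock. The comparison asked which mRNA levels change when this enzyme is impaired.

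FIO1 (AT2G21070) lies on chromosome 2 at 9040852 to 9043651 of TAIR10.1, on the plus strand, with 8 exons and a coding sequence of 484 codons including the stop. According to the methods, the allele was induced by Cas9 expressed from the RPS5A promoter with pooled guides. The results of the study describe it as a small deletion near a splice site that removes some residues and alters others. It is not a removal of the gene, and counts over the gene do not check the label. The vector also carried an OLE1 promoter with OLE1 fused to TagRFP for selection of seeds, and whether the sequenced line still carried this cassette is not stated. The end of exon 1, close to the residues described as lost or altered, is shown from the RefSeq genome with the exon in capitals, at chr2:9041155-9041178. Of the guides that the study tabulates for FIO1, the nearest to this exon end are shown with the PAM in capitals. They match the plus strand of exon 1 at codon 52 (fio1-sgRNA2, chr2:9041080-9041098) and at codon 71, 15 bases before the exon end (fio1-sgRNA3, chr2:9041136-9041154). The table does not say which guides made this allele.
FIO1 exon 1 end: TGGCGTCAACTGgtatgatttcaa
fio1-sgRNA2: tagtcgagctcgcatcgacTGG
fio1-sgRNA3: tcctccttctacatgaccaTGG

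The FIO1 mRNA was at 11.1 and 8.94 CPM in wild type and at 6.97 and 8.65 CPM in *fio1-2*. CPM are counts per 1000000 counts of a library, here with TMM scaling, and every level below is in this unit. The *fio1-2* libraries were both below the wild-type libraries, but the log2 fold change of -0.34 ± 0.18 (SE, n = 2 against 2) did not pass the test (adjusted p = 0.146).

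The 4 libraries held 9717111 to 13055457 counts, and 21268 genes had enough counts to be tested. Calls required a Benjamini-Hochberg adjusted p under 0.05 from limma-voom together with a fold change of at least 2 in either direction. This held for 901 genes that were higher in *fio1-2* (4.24% of those tested) and for 361 that were lower (1.7%). Without the fold minimum, 16.4% passed the adjusted p higher and 16.1% lower. These shares are the background for every count of list members below. The median log2 fold change of all tested genes was 0.003. The libraries held seedling RNA by the leaf gene RBCS1A, which was at 11796 to 14201 CPM in the 4 libraries. A bulk library cannot tell a change in the number of cells of a type from a change in RNA per cell. Of the 378 tested genes in the 31 gene lists used below, 85 were called higher and 20 lower. The storage list held 10 of the higher calls, the oil body list 7 and the list of late embryogenesis abundant proteins 11. The lists were chosen with earlier results of these data known.

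The largest increases were in genes of seed reserves, which are normally transcribed in the maturing embryo and are silent in leaves. All 10 seed storage protein genes were called higher in *fio1-2*. Their summed level was 0.715 and 1.44 CPM in the wild-type libraries and 8624 and 8908 CPM in *fio1-2*, which was 0.865% and 0.891% of all counts there. The *fio1-1* libraries lay between, at 38.5 and 37.5 CPM. The cruciferins, which are the 12S globulins of the Arabidopsis seed, and the napin-type 2S albumins of the SESA genes were both in this group.

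CRU3, a cruciferin (AT4G28520, chromosome 4, 14087556 to 14089796), had 0 counts in both wild-type libraries and was at 2401 and 2418 CPM in *fio1-2*. This is at least 16217-fold higher than the floor of 3 counts summed over the wild-type group, and *fio1-1* was at 5.86 and 5.96 CPM. CRA1, a further cruciferin, had 3 wild-type counts in sum (0.102 and 0.192 CPM) and was at 1974 and 1925 CPM in *fio1-2*. The ratio of CRA1 counts per depth was 13098, with an exact 95% counting interval of 4482 to 63516. CRU2 was at 0 and 0.0962 CPM in wild type and at 817 and 829 CPM in *fio1-2*. In each of these genes the libraries of the groups were far apart and the *fio1-2* libraries agreed closely.

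The neighbouring albumin genes SESA1 to SESA4 lie together on chromosome 4, from 13607329 to 13614283, and were all called higher. SESA2 had 0 counts in wild type and was at 999 and 1147 CPM in *fio1-2*, at least 7272-fold higher than the floor. SESA1 had 0 counts in wild type and was at 453 and 523 CPM, at least 3309-fold higher. SESA3 had a single wild-type count (0.0962 CPM) and was at 1036 and 988 CPM, and SESA4, likewise with 1 wild-type count, was at 629 and 740 CPM. SESA5 on chromosome 5 went from 0 counts to 179 and 196 CPM. These paralogs share sequence, so how reads were split between them is uncertain, and shared reads may also be lost from their sum. The lowest members were AT1G03890, annotated as an RmlC-like cupin, with 0 counts in wild type and in *fio1-1* and 32.8 and 32.5 CPM in *fio1-2*, and PAP85, a vicilin-type cupin, with 0.511 and 1.06 CPM in wild type and 104 and 108 CPM in *fio1-2*. Per kilobase of transcript, the mean level in *fio1-2* was highest for SESA2 (1460 CPM per kb), CRU3 (1343) and SESA3 (1318).

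The median log2 fold change of the 10 genes was 13.25, or 12.90 with the genes at 0 counts in wild type placed at their lower bounds, beside 0.003 for all genes. Fitted fold changes of genes at 0 counts depend on the prior count and are not given singly. All 10 were also called higher in the direct test against *fio1-1*, where 2.13% of tested genes were. AT1G03890 had 0 counts in *fio1-1* and was at least 219-fold higher than the floor of 3 counts over that group. For the other 9 genes the direct log2 difference ranged from 6.70 for PAP85 to 8.66 for CRU3. For CRU3 the adjusted p of this difference was 5.83e-52.

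**Figure D1:**
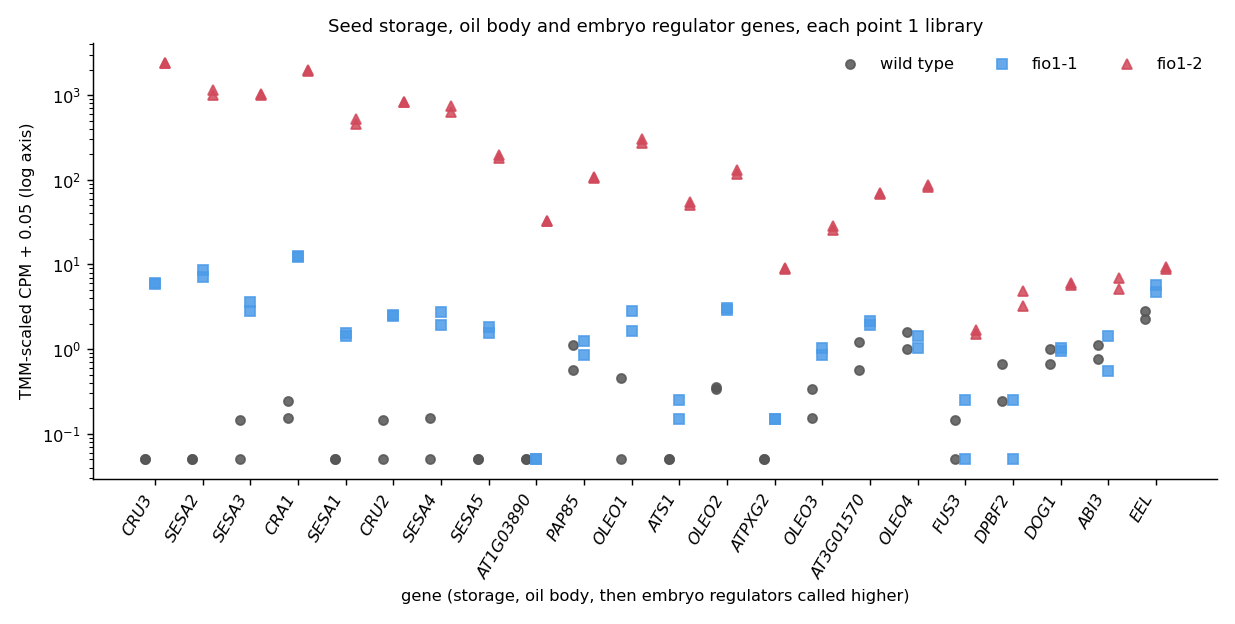
TMM-scaled CPM plus 0.05 on a log axis for seed storage genes, oil body genes and the embryo regulators called higher, with 1 point for each library of wild type, fio1-1 and fio1-2. The fio1-2 points lie above those of wild type for every gene, and CRU3 reaches 2401 and 2418 CPM.

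Maturation genes of the seed often carry the RY motif, which B3-domain regulators such as FUS3 and ABI3 bind. The letters CATGCATG were searched on both strands in the 250 bases before and 50 after the start of each gene, in RefSeq sequence of TAIR10.1. They were found at 4 of 10 storage genes and at 1 of 8 oil body genes. They were found at 3.11% of the genes called higher, 1.11% of those called lower and 0.763% of all tested genes. The windows below show the motif in capitals in the storage genes that had it, each on the strand of its gene, at chr4:13611703-13611722 (plus), chr4:13613477-13613496 (plus), chr5:22239385-22239404 (minus) and chr3:8013959-8013978 (minus). SESA3 held 2 copies that overlap, of which the first is shown. A match is only a description of the letters and not a binding site. CACGTG, the G-box bound by bZIP factors, was at 50% of the storage genes, 16.2% of the genes called higher and 8.59% of all tested genes.
SESA3: cacactCATGCATGcatgca
SESA4: caatcaCATGCATGcaatgt
SESA5: caagagCATGCATGctgttg
PAP85: cgtcacCATGCATGtcaagc

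Genes of oil bodies, the organelles that hold seed oil, rose with the storage proteins. All 7 tested members of the list of 8 were called higher, and their summed level went from 2.86 and 2.69 CPM in wild type to 631 and 680 CPM in *fio1-2*. OLEO1, an oleosin that coats oil bodies, was at 0.409 and 0 CPM in wild type and at 273 and 301 CPM in *fio1-2*. Reads of the endogenous gene and of an OLE1 cassette cannot be told apart in these counts. OLEO2 was at 0.307 and 0.289 CPM in wild type and 118 and 129 CPM in *fio1-2*, a log2 fold change of 8.48 ± 0.57 (SE). OLEO4 went from 1.53 and 0.962 CPM to 85.7 and 82.4 CPM, and its *fio1-1* libraries, at 0.993 and 1.39 CPM, overlapped wild type.

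The caleosin gene ATS1, which encodes a calcium-binding oil body protein, had 0 counts in wild type and was at 50.5 and 55.1 CPM, at least 357-fold above the floor. Its relative ATPXG2 had 0 counts in wild type and was at 8.69 and 9.03 CPM. The remaining called genes were OLEO3 and AT3G01570. The steroleosin gene HSD1 was not tested, and its *fio1-2* libraries differed from each other, at 0.669 and 5.89 CPM against 0 counts in wild type. The median log2 fold change of the tested genes was 7.49, or 6.88 with bounds, and all 7 were called higher than *fio1-1*. OLEO1, OLEO2 and AT3G01570 overlap genes on the opposite strand, and whether counting used strand is not stated.

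Late embryogenesis abundant (LEA) proteins protect cells during drying. Of 12 tested genes of this list 11 were called higher and none lower, with a median log2 fold change of 3.54, and the summed level went from 31.2 and 31.9 CPM to 171 and 167 CPM. EM1, an early LEA protein of the dry seed, had 0 counts in wild type and in *fio1-1* and was at 5.06 and 7.88 CPM in *fio1-2*, at least 44.6-fold above the floor. ECP63 had 2 wild-type counts in sum and was at 17.58 and 18.37 CPM in *fio1-2*, a ratio of 182 with a counting interval of 50.02 to 1506. M17 went from 1.02 and 1.06 CPM to 12.6 and 13.9 CPM, a log2 fold change of 3.62 ± 0.38 (SE). Smaller changes were found for dehydrins that leaves also express, such as RAB18, which was at 23.8 and 24.2 CPM in wild type and at 79.6 and 70.5 CPM in *fio1-2* (1.63 ± 0.09). Against *fio1-1*, 9 of the list were called higher, and RAB18, with a direct difference of 0.40, was not. GEA6 (1.39) lost its call in 4 of the 15 alternatives other than treat, with adjusted p = 0.251 without wild type replicate 1, 0.0964 without wild type replicate 2, then 0.182 without *fio1-2* replicate 2, in a range of 0.0229 to 0.251. Treat, limma's stricter test against a log2 fold change of 1, is left out of this count and range and of those given for genes below, and each gene described here as losing its call when a library was left out also lost it under treat. The G-box was at 69.2% of the LEA genes. Together, the storage, oil body and LEA lists made up 0.945% and 0.976% of the counts of the *fio1-2* libraries and 0.0035% and 0.00363% of those of wild type.

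The transcription factors that control embryo maturation were low in all libraries, and 5 of 11 tested were called higher. FUS3, a B3-domain activator of reserve genes, was at 0 and 0.0962 CPM in wild type and at 1.62 and 1.45 CPM in *fio1-2*, a ratio of 30.9 with a counting interval of 5.20 to 1253. ABI3, its relative in abscisic acid signalling of the seed, was at 0.715 and 1.06 CPM in wild type and at 6.88 and 5.13 CPM in *fio1-2* (log2 fold change 2.67 ± 0.43). The bZIP factor DPBF2, also known as bZIP67, was at 0.613 and 0.192 CPM and rose to 4.87 and 3.21 CPM. In these genes the groups did not overlap, as in 32.4% of all tested genes in the same direction. DOG1, a regulator of seed dormancy, rose from 0.613 and 0.962 CPM to 5.73 and 5.97 CPM, and the bZIP gene EEL from 2.76 and 2.21 CPM to 9.36 and 8.88 CPM. FUS3, ABI3, DPBF2 and DOG1 were called higher than *fio1-1* as well.

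LEC1 and LEC2, regulators of early embryo development, had at most 1 count in any of the 4 libraries, too few for a comparison. LEC1 had 0 counts in wild type and was at 0.0955 and 0.0765 CPM in *fio1-2*, LEC2 had 0 counts in *fio1-2*, which allows up to 0.127 CPM over the group, and both were left untested. ABI5 (0.17 ± 0.25) and the oil synthesis factor WRI1 (0.23 ± 0.19) did not pass the test. Of the seed coat markers, BAN, TT2 and TT16 were at no more than 0.0955 CPM in the 4 libraries, and none of the 3 tested members was called. The summed seed coat level was 152 and 152 CPM in wild type and 159 and 156 CPM in *fio1-2*. Only 4 of the 7 members had a count in the wild-type libraries and 5 in those of *fio1-2*. MUM4 alone was at 44.8 and 53.1 CPM in wild type and at 47.3 and 43.4 CPM in *fio1-2*. Whether seed material was in the pools was not tested. The summed root marker level was 73.3 and 71.2 CPM in wild type and 109 and 105 CPM in *fio1-2*, and its part in the results was not tested.

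Of 11 genes of seed oil breakdown and early seedling growth, 4 were called higher and none lower. ICL, isocitrate lyase of the glyoxylate cycle, was at 2.25 and 1.64 CPM in wild type and at 89.1 and 83.6 CPM in *fio1-2*, a log2 fold change of 5.46 ± 0.29 (SE). It stood equally high in *fio1-1*, at 93.7 and 81.3 CPM, with a direct difference of -0.02 (adjusted p = 0.882), in contrast to the storage genes. MLS, malate synthase of the same cycle, rose from 3.07 and 2.02 CPM to 43.1 and 38.7 CPM. The tonoplast aquaporins of seed protein vacuoles rose too, TIP3;1 from 1.94 and 2.12 CPM to 79 and 75.7 CPM and BETA-TIP from 1.12 and 0.673 CPM to 52.3 and 57.5 CPM. BETA-TIP shares sequence positions with the antisense gene AT1G05333, which had 0 counts in wild type and 34 and 28 CPM in *fio1-2*.

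In total, 23 genes had 0 counts in both wild-type libraries and at least 5 CPM in both *fio1-2* libraries, and 15 of them were in none of the 3 seed lists. All 23 were called higher than *fio1-1*, where 2.13% of tested genes were, and 3 had 0 counts in *fio1-1*. They were chosen by their high levels in the same *fio1-2* libraries, so this count was in large part fixed by the choice. AT1G47540, annotated as a knottin of the scorpion toxin type, was at 124 and 156 CPM in *fio1-2*, at least 953-fold above the floor. AT2G05580, a glycine-rich protein gene, was at 83.6 and 84.8 CPM, and AT1G04560, of the AWPM-19-like family, was at 50.9 and 54.1 CPM. EPR1, an extensin-like gene that is known from the endosperm of germinating seeds, was at 77 and 70.9 CPM. AOP3, a dioxygenase of glucosinolate side chains, had 0 counts in wild type and in *fio1-1* and was at 8.98 and 5.82 CPM in *fio1-2*, although AOP3 belongs to none of the seed lists.

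Called genes also lay next to each other on the chromosomes, with 5 runs of 4 or more neighbouring tested genes called in the same direction and 16 runs of 3. The runs of higher genes were SESA1 to SESA4 and the genes AT1G14930, AT1G14940, AT1G14950 and AT1G14960, which are annotated as polyketide cyclase or lipid transport proteins. AT1G14950 had 0 counts in wild type and was at 6.97 and 6.51 CPM in *fio1-2*. The longest run, of 5 lower genes, was UGT73B3, AT4G08935, UGT73B2, UGT73B1 and AT4G34139 on chromosome 4, in which AT4G08935 and AT4G34139 overlap a UGT73B gene on the opposite strand. UGT73B3 fell short of the fold minimum without *fio1-2* replicate 2 (log2 fold change -0.92). GSTU4, GSTU2, AT2G29485 and GSTU1 on chromosome 2 formed a lower run, and AT1G47395, AT1G47400, AT1G07367 and AT1G07373 on chromosome 1 another. AT1G07367 lost its call without *fio1-2* replicate 2 (adjusted p = 0.131, in a range of 8.1e-05 to 0.131 over 15 alternatives).

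The largest decreases were in genes of different kinds. AT4G01870, annotated as a tolB-like protein, was the most abundant of them, at 704 and 690 CPM in wild type and at 84.9 and 73.5 CPM in *fio1-2*, 8.87-fold lower (log2 fold change -3.15 ± 0.05). CYP81D11, a cytochrome P450 gene induced by foreign compounds, was at 199 and 200 CPM in wild type and at 24.6 and 23.9 CPM in *fio1-2* (-3.04 ± 0.08). ChlAKR, a chloroplast aldo-keto reductase, fell from 64.7 and 67.2 CPM to 6.97 and 6.74 CPM (-3.26 ± 0.15). The libraries of wild type and *fio1-2* were far apart in each of these genes.

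Among the glycosyltransferases, UGT73C1 was at 21.2 and 20.5 CPM in wild type and at 2.48 and 1.91 CPM in *fio1-2*, and UGT73B2 was at 157 and 149 CPM against 31.9 and 22.4 CPM. The gene family was looked at after these values were seen, and 7 of 9 tested UGT73 genes were called lower, with a median log2 fold change of -1.37. The family median in *fio1-1* was -1.68, and no member was called in the direct test between the alleles. UGT73C6, at 15.6 and 18 CPM against 10.1 and 7.2 CPM, lay just past the fold minimum and fell short of it in 6 of the 15 alternatives other than treat, from -0.73 without *fio1-2* replicate 2 and -0.90 without wild type replicate 2 to -0.99 with the replicate block, and UGT73B3 did so in 1. This left 6 or 5 called genes of the family. UGT75B1, which glucosylates small molecules, was at 286 and 276 CPM in wild type and at 36.7 and 38.3 CPM in *fio1-2*, and AT1G05562 on the opposite strand gave nearly the same values. UGT75B1 was equally low in *fio1-1*, at 38.8 and 35.7 CPM (direct difference 0.01).

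The glutathione transferase gene GSTU24 was at 161 and 159 CPM in wild type and at 33.2 and 27.8 CPM in *fio1-2* (-2.41 ± 0.08). It was also low in *fio1-1*, at 32.9 and 33.7 CPM (direct difference -0.14). Of 22 tested GSTU genes, also chosen after values were seen, 5 were called lower and 1, GSTU23, higher, with a median of 0.13. No GSTU gene was called higher on omission of wild type replicate 2, and 2 were on that of *fio1-2* replicate 2. The oxophytodienoate reductase gene OPR1 was at 343 and 344 CPM in wild type and at 69.2 and 72.7 CPM in *fio1-2*, and OPR2 at 54.1 and 57.3 CPM against 16.9 and 15.6 CPM. In *fio1-1* the levels were close, at 70.8 and 77.2 CPM for OPR1 (direct difference -0.06 ± 0.09, adjusted p = 0.64).

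SUC7, a sucrose transporter gene, showed the largest decrease by log2 fold change, from 7.97 and 8.46 CPM in wild type to 0.287 and 0.306 CPM in *fio1-2* (-4.61 ± 0.55). Reads of SUC6, SUC7 and SUC8 are hard to assign because the genes are nearly identical, and SUC6 and SUC8 had 0 counts in all libraries. AT4G07820, of the CAP superfamily of secreted proteins, fell from 15.8 and 15.1 CPM to 0.382 and 1.38 CPM (-4.24 ± 0.42), and AT4G08555, an uncharacterized protein gene, from 31.4 and 31.3 CPM to 1.82 and 1.76 CPM (-4.10 ± 0.28). The other genes of this group were AT5G16960 (-3.71), AT1G10585 (-3.48) and CYP89A6 (-3.28). AT1G10585 fell less in *fio1-1*, to 5.36 and 3.57 CPM, with a direct difference of -1.53.

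**Figure D2:**
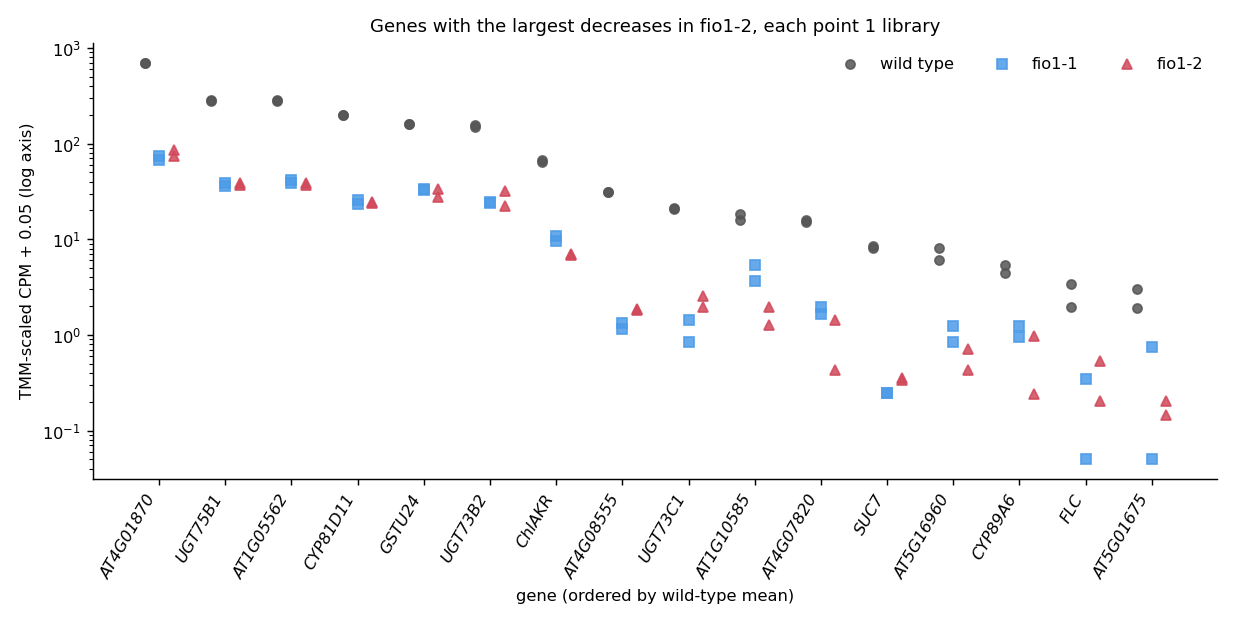
TMM-scaled CPM plus 0.05 on a log axis for the genes with the largest decreases in fio1-2, ordered by wild-type mean, with 1 point for each library of wild type, fio1-1 and fio1-2. All wild-type points lie above the fio1-2 points, as for AT4G01870 at 704 and 690 against 84.9 and 73.5 CPM.

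Genes of the photosynthetic antenna, a family chosen after values were seen, rose whereas those of carbon fixation were slightly lower. Of 13 tested LHCA and LHCB genes, which encode chlorophyll-binding antenna proteins, 5 were called higher, 12 passed the adjusted p higher and 1 lower. LHCB2.2 was at 219 and 211 CPM in wild type and at 850 and 821 CPM in *fio1-2* (log2 fold change 1.96 ± 0.04). LHCB2.1 went from 300.3 and 286 CPM to 1036 and 1028 CPM, LHCB2.3 from 45.5 and 44.6 CPM to 158 and 161 CPM, LHCB4.2 from 469 and 473 CPM to 1440 and 1489 CPM, and LHCB3 from 1122 and 1160 CPM to 2657 and 2680 CPM. The exception was LHCB4.3, a rare CP29 form, at 20.2 and 20 CPM in wild type and 12.4 and 11.5 CPM in *fio1-2* (-0.76 ± 0.13). The family took 1.82% and 1.83% of the counts in wild type and 2.92% and 2.91% in *fio1-2*, with a median log2 fold change of 0.87. The rise was shared by *fio1-1*, where the family took 2.85% and 2.74% of the counts, with a median of 0.85. There 5 members were called higher than wild type, and none was called in the direct test between the alleles. The LHCB2 genes are near-identical, so the split between them is uncertain.

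The genes of Rubisco and the Calvin cycle gave no call, but 11 of 12 passed the adjusted p lower and 1 higher, where 16.1% and 16.4% of all tested genes did. Their median log2 fold change was -0.26, and these directions held under the other scalings, where upper-quartile factors left 10 lower. RBCS1B, a small subunit of Rubisco, was at 858 and 846 CPM in wild type and at 514 and 503 CPM in *fio1-2* (-0.75 ± 0.03), and RBCS2B at 1351 and 1349 CPM against 824 and 826 CPM. RBCS1A, the main small subunit gene, was at 14201 and 13938 CPM in wild type and at 11796 and 11824 CPM in *fio1-2* (-0.25 ± 0.01), while *fio1-1* was at 16014 and 15198 CPM. The member that was higher was RCA, Rubisco activase (0.13 ± 0.02).

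In chlorophyll synthesis, 2 of 14 genes were called, both higher. PORA, a protochlorophyllide reductase best known from dark-grown seedlings, rose from 2.56 and 3.27 CPM to 11.7 and 10.5 CPM (1.90 ± 0.25). CH1, chlorophyllide a oxygenase that makes chlorophyll b, rose from 32.4 and 35.8 CPM to 68.5 and 75.6 CPM (1.08 ± 0.08). HEMA1, the first committed enzyme (0.91), and PORB (0.77) passed the adjusted p below the fold minimum. In all, 7 members passed it higher and 3 lower.

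**Figure D3:**
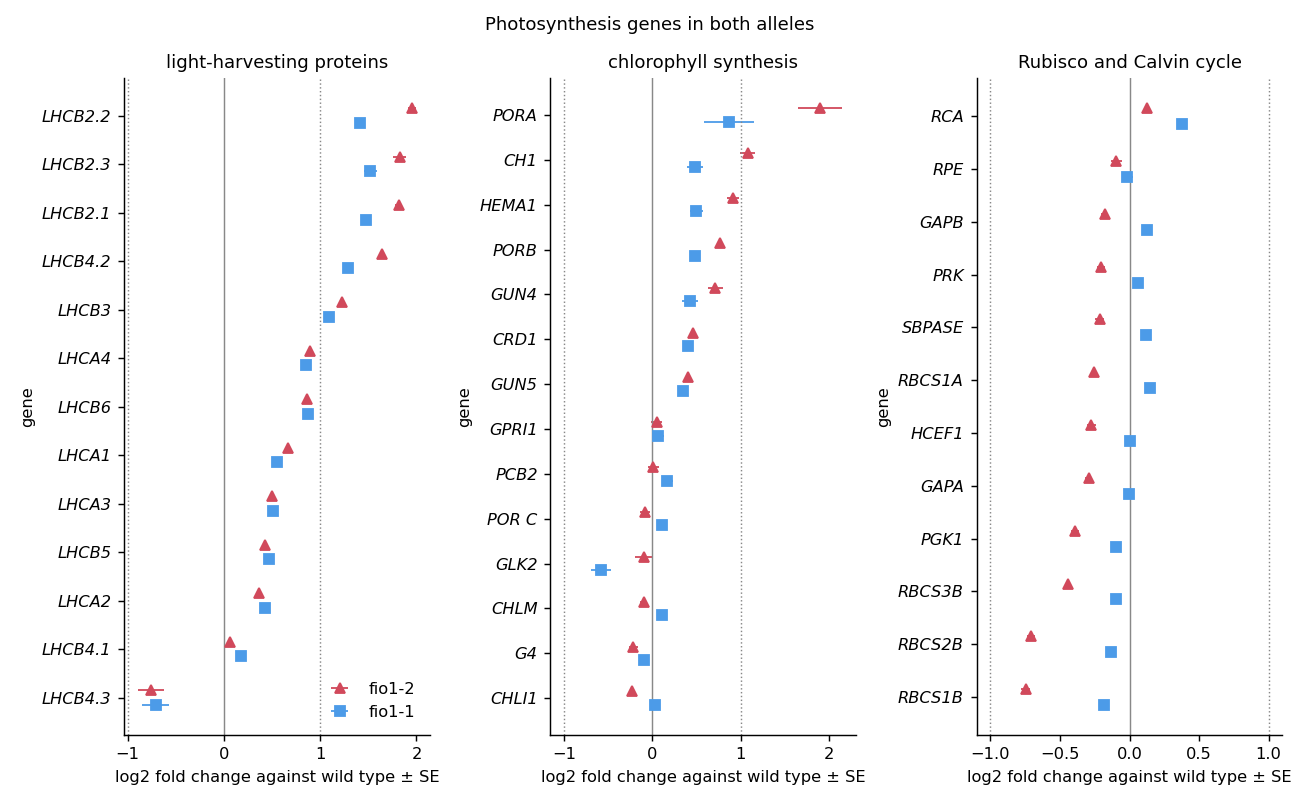
Log2 fold change against wild type with its SE for light-harvesting, chlorophyll synthesis and Rubisco and Calvin cycle genes, in fio1-1 and fio1-2, which share the wild-type libraries. LHCB2.2 stands at 1.96 in fio1-2, whereas RBCS1B stands at -0.75.

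In copper shortage plants are known to replace superoxide dismutases that need copper by an iron form, and both kinds were measured here. In *fio1-2* the copper dismutases were lower and the iron dismutase was higher than in wild type. CSD2, the chloroplast copper/zinc dismutase, was at 155 and 149 CPM in wild type and at 55.5 and 58 CPM in *fio1-2* (log2 fold change -1.42 ± 0.06). CCS, the chaperone that loads copper into it, fell from 60 and 60.2 CPM to 29.1 and 28.2 CPM (-1.07 ± 0.09). FSD1, the iron dismutase, was at 419 and 412 CPM in wild type and at 778 and 755 CPM in *fio1-2*, which was below the fold minimum (0.88 ± 0.03). YSL2, a transporter of metal chelates, rose from 17.1 and 15.1 CPM to 46.2 and 39 CPM (1.39 ± 0.12), and AT1G71200, a bHLH gene, from 0.613 and 1.83 CPM to 6.59 and 5.59 CPM (2.42 ± 0.40).

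Over the copper list, 2 of 18 genes were called higher and 2 lower, with a median of 0.03. Without the fold minimum, 7 passed the adjusted p higher and 6 lower. FRO3, a ferric reductase gene of the list, was among the lower, from 92.3 and 88.5 CPM to 65.1 and 61.3 CPM (-0.52 ± 0.07). In *fio1-1* CSD2, CCS, FSD1 and YSL2 stood on the other side of wild type, with CSD2 at 373 and 374 CPM, CCS at 111 and 112 CPM, FSD1 at 209 and 195 CPM and YSL2 at 11.1 and 11.6 CPM. AT1G71200, at 1.09 and 0.794 CPM in *fio1-1*, lay within the range of wild type. The direct difference between the alleles was -2.71 for CSD2 (adjusted p = 1.76e-48), -1.96 for CCS and 1.92 for FSD1. CSD1, the cytosolic dismutase, was at 98.1 and 97.9 CPM in wild type, 187 and 208 CPM in *fio1-1* and 53.7 and 49.1 CPM in *fio1-2*, and its log2 fold change of -0.94 ± 0.07 in *fio1-2* lay just inside the fold minimum.

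The iron list was lower, with 5 of 21 genes called lower and none higher, and with 14 genes past the adjusted p lower and 3 higher. Its median log2 fold change was -0.56. Of the bHLH factors of the Ib subgroup, which switch on iron uptake when iron is short, 3 of 4 were called lower, and BHLH101, from 27.1 and 27.4 CPM to 15.4 and 15.4 CPM, passed the adjusted p below the fold minimum (-0.82 ± 0.12). BHLH100 was at 28.6 and 29.1 CPM in wild type and at 9.84 and 10.3 CPM in *fio1-2* (-1.51 ± 0.13). bHLH38 fell from 18 and 20.2 CPM to 6.59 and 6.51 CPM and bHLH39 from 24.7 and 26.5 CPM to 8.88 and 9.11 CPM, and *fio1-1* was at 19.1 and 18.17 CPM for bHLH38 and at 24.3 and 21.7 CPM for bHLH39. PYE, a further regulator of the iron response, fell from 24.4 and 28.5 CPM to 10.9 and 10.8 CPM (-1.28 ± 0.13).

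AT3G12900, an oxygenase gene, was at 2.25 and 4.62 CPM in wild type and at 1.05 and 1.91 CPM in *fio1-2* (-1.14 ± 0.39). It lost its call on omission of wild type replicate 2 (-0.61, adjusted p = 0.426) or of *fio1-2* replicate 1 (-0.77, adjusted p = 0.202), in a range of 0.00127 to 0.426. The transporter IRT1 (-0.40) and the regulators FRU (-0.75) and BTS (-0.59) passed the adjusted p below the fold minimum.

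**Figure D4:**
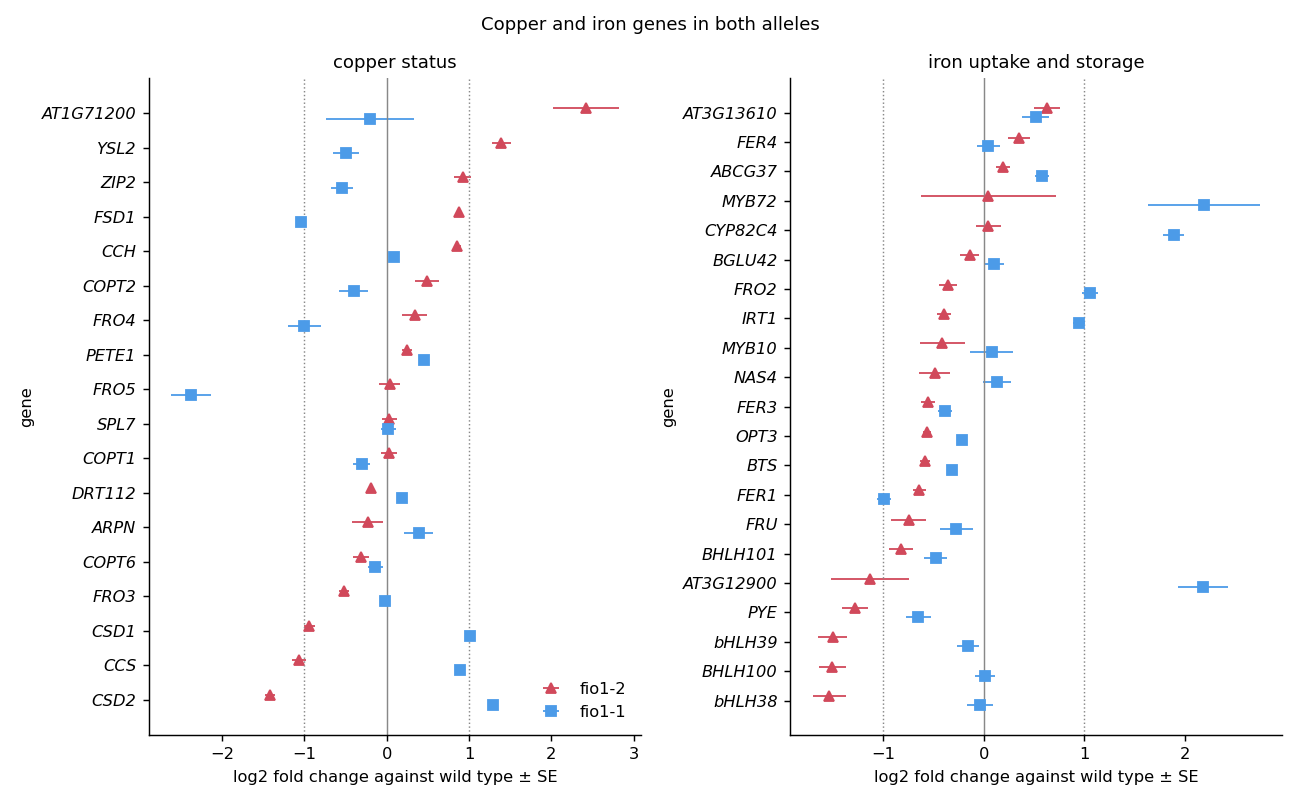
Log2 fold change against wild type with its SE for copper and iron genes in fio1-1 and fio1-2, which share the wild-type libraries. CSD2 stands at -1.42 in fio1-2 and at 1.30 in fio1-1, and bHLH38 at -1.54 in fio1-2.

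Some flowering genes were called in seedlings of this age, where 4.24% of all tested genes were called higher and 1.7% lower. FLC, the repressor silenced by vernalization, was at 3.37 and 1.92 CPM in wild type and at 0.478 and 0.153 CPM in *fio1-2* (-3.08 ± 0.63, adjusted p = 7.02e-05). AT5G01675, an RNA on the opposite strand of FLC, was at 1.84 and 2.98 CPM in wild type and at 0.0955 and 0.153 CPM, and reads of the pair cannot be told apart without strand. TEM1, a repressor of FT, was at 188 and 191 CPM in wild type and at 93.2 and 83.4 CPM in *fio1-2* (-1.11 ± 0.06). FLC and TEM1 were the 2 of 15 floral repressors called lower, and none was called higher. Without *fio1-2* replicate 1, 1 repressor was called higher. RAV2 (-0.85) and MAF1 (-0.91), also repressors, passed the adjusted p below the minimum, whereas SVP was slightly higher (0.39 ± 0.09).

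Among 10 tested floral activators, 2 were called higher and 1 lower. FT, the mobile flowering signal, was at 0.409 and 0.577 CPM in wild type and at 2.2 and 1.53 CPM in *fio1-2* (1.77 ± 0.55). It lost its call without wild type replicate 1 (adjusted p = 0.116), wild type replicate 2 (0.0727) or *fio1-2* replicate 1 (0.0613), in a range of 0.0035 to 0.116. SPL5 (1.10) lost its call in 8 of 15 alternatives, with adjusted p = 0.148 and 0.245 without wild type replicates 1 and 2, 0.306 without *fio1-2* replicate 2, and 0.06 and 0.0596 without the *fio1-1* replicates, in a range of 0.0245 to 0.306. AGL42 (-1.26) lost it in 6, with adjusted p = 0.0546 and 0.159 without the wild-type replicates and 0.184 and 0.0844 without those of *fio1-2*, in a range of 0.0273 to 0.213. AGL20, known as SOC1, was at 26.7 and 27.2 CPM in wild type and at 46 and 40.2 CPM in *fio1-2* (0.66 ± 0.10). Of the floral organ genes, SEP3 was called higher, from 7.05 and 7.41 CPM to 16.6 and 17.3 CPM (1.23 ± 0.17), 10 of 13 were too low to be tested, and AG had 0 counts in all libraries.

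The m6A list gave no call among 12 tested genes, with 1 past the adjusted p higher and 5 lower, where 16.4% and 16.1% of all tested genes were. Its median log2 fold change was -0.27 in *fio1-2* and -0.22 in *fio1-1*, and no member was called in the direct test. The reader gene ECT4 (-0.59 ± 0.08) and the methyltransferase gene MTA (-0.30 ± 0.11) were among the lower ones. ECT4 was at -0.62 in *fio1-1*. The list of the S-adenosylmethionine cycle, which supplies the methyl donor, also gave no call in 10 genes, with 2 past the adjusted p in each direction.

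Growth genes of the shade response rose in part. PIF4, a bHLH factor that promotes elongation in warmth and shade, was at 19.5 and 20.1 CPM in wild type and at 88.3 and 88.6 CPM in *fio1-2* (2.15 ± 0.10), above *fio1-1* at 50.2 and 48.1 CPM. PIL6, known as PIF5, rose from 28.6 and 30.3 CPM to 60.7 and 64.4 CPM (1.09 ± 0.09). Of 20 tested genes of this list 8 were called higher and none lower, including the inhibitors of PIF action HFR1 (1.17) and PAR1 (1.14) and the auxin-induced IAA29 (1.85). PAR2 (1.02) lost its call on omission of wild type replicate 1 (0.75, adjusted p = 0.0937) or of *fio1-2* replicate 2 (0.79, adjusted p = 0.0703), in a range of 0.000529 to 0.0937, and YUC9, from 0.307 and 0.577 CPM to 1.15 and 1.45 CPM, lost it in 8 of 15 alternatives. For YUC9 the adjusted p was 0.306 and 0.129 without wild type replicates 1 and 2, 0.0563 and 0.18 without those of *fio1-2*, and 0.0633 and 0.063 without those of *fio1-1*, and its lowest value over the alternatives was 0.0398. Of 13 auxin response genes SHY2 (1.05) and IAA14 (1.11) were called higher, and IAA14 fell below the fold minimum without wild type replicate 2 (0.94).

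All 19 cell wall loosening genes passed the adjusted p, 17 higher and 2 lower, where 16.4% and 16.1% of all tested genes did. Among them, 5 were called higher and 1 lower, beside 4.24% and 1.7% of all tested genes. The list median was 0.62 in *fio1-2* and 0.84 in *fio1-1*, where 8 members were called higher than wild type. XTR6, a xyloglucan endotransglucosylase, rose from 3.88 and 3.46 CPM to 13.4 and 16 CPM (2.00 ± 0.23), but stood higher still in *fio1-1*, at 39.3 and 35.9 CPM (direct difference -1.35). XTH33 did likewise, at 2.45 and 2.02 CPM in wild type, 59.4 and 61.4 CPM in *fio1-1* and 8.41 and 9.11 CPM in *fio1-2*. The expansin gene EXPA10 fell from 92.9 and 96.9 CPM to 37.6 and 45 CPM (-1.19 ± 0.07). For gibberellin, the biosynthetic oxidase GA20OX3 was at 0.102 and 0.0962 CPM in wild type and at 5.83 and 5.74 CPM in *fio1-2*, a ratio of 58.3 with a counting interval of 15.8 to 486, and GA20OX2 rose from 0.715 and 1.35 CPM to 6.69 and 7.5 CPM (2.78 ± 0.40). GA3OX1, which acts after them, fell from 6.64 and 6.54 CPM to 2.87 and 2.83 CPM (-1.20 ± 0.26). These were the 2 higher and 1 lower calls of 14 tested gibberellin genes, and 2 were lower on omission of wild type replicate 1 or of *fio1-2* replicate 1.

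The calls in the cold and abscisic acid lists were higher in *fio1-2* for every gene but 1. COR15A, which protects chloroplast membranes in frost, was at 18.7 and 17.5 CPM in wild type and at 88.1 and 83.7 CPM in *fio1-2* (2.24 ± 0.10). KIN2 rose from 122 and 119 CPM to 365 and 392 CPM (1.65 ± 0.05) and KIN1, its near-identical neighbour, from 14.2 and 16.4 CPM to 43.9 and 45.9 CPM. The genes CBF1, CBF2 and DREB1A, which encode the CBF factors that induce many cold genes, were at no more than 0.577 CPM in the 4 libraries and were not tested. In all, 5 of 9 cold genes were called higher and RHL41, a zinc finger gene, lower (-1.27). GolS3 (2.66) lost its call without wild type replicate 1 (adjusted p = 0.0833, in a range of 0.00124 to 0.0833). Of 9 abscisic acid genes, 4 were called higher, among them LTI65, from 2.04 and 2.89 CPM to 19.1 and 15.5 CPM (2.77 ± 0.27). NCED3 (1.31), a step of abscisic acid synthesis, lost its call on omission of wild type replicate 2 (0.80, adjusted p = 0.234) or of *fio1-2* replicate 2 (adjusted p = 0.111), in a range of 0.00611 to 0.234.

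Salicylic acid markers were called in both directions, and 4 of 18 tested jasmonate genes higher. PR1, the classic marker of salicylic acid, was at 1.64 and 1.92 CPM in wild type and at 44.4 and 52.1 CPM in *fio1-2* (4.73 ± 0.30), with *fio1-1* between at 15.2 and 14.3 CPM. BGL2, also called PR2, rose from 0.818 and 1.25 CPM to 18.3 and 25.6 CPM (4.37 ± 0.40). In contrast, the early stress factors WRKY40 and WRKY33 were lower, WRKY40 at 42.9 and 44.4 CPM in wild type and 10.8 and 11.9 CPM in *fio1-2* (-1.94 ± 0.12) and WRKY33 at 93.1 and 83.2 CPM against 42.3 and 39.3 CPM. The list held 3 higher and 2 lower calls among 19 tested genes. The jasmonate list had 4 higher calls of 18, namely VSP2, VSP1 (2.35), PDF1.2 (2.38) and AOC3 (1.08). VSP2 went from 1.84 and 0.962 CPM to 12.5 and 13.6 CPM (3.26 ± 0.35). In this list 7 genes passed the adjusted p higher and 2 lower, with a median of 0.20. MYC2 was among the 2 lower (-0.52). AOC3 lost its call without wild type replicate 1 (0.85, adjusted p = 0.0807, in a range of 0.00142 to 0.0807).

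Nutrient lists gave scattered calls. For sulfur deficiency 3 of 16 were called higher, with ATSDI1 from 2.25 and 2.12 CPM to 9.46 and 10.4 CPM (2.17 ± 0.29) and the sulfate transporter SULTR2;1 from 40.6 and 37.8 CPM to 99.7 and 108 CPM (1.41 ± 0.08), whereas the assimilation gene APR3 fell from 262 and 266 CPM to 119 and 117 CPM (-1.17 ± 0.05). LSU3 (1.07) lost its call without wild type replicate 1 (adjusted p = 0.0817), without *fio1-2* replicate 2 (0.0683) and in DESeq2 (0.0946), in a range of 0.00483 to 0.0946. For phosphate, RNS1 (1.38) was the 1 higher and PS2 (-1.09) the 1 lower call of 13. RNS1 lost it without wild type replicate 1 (adjusted p = 0.0778, in a range of 0.00043 to 0.0778), and PS2 without wild type replicate 2 (0.0528), without *fio1-2* replicate 1 (0.0517) and in DESeq2 (0.0936), in a range of 0.00534 to 0.0936. No gene of aliphatic glucosinolate synthesis was called, but 10 of 16 passed the adjusted p higher and none lower, with a median of 0.45. Of 8 tested genes of indole glucosinolate synthesis none was called either.

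Of 14 flavonoid genes the regulator MYB111 was called lower (-1.35 ± 0.30), from 5.21 and 5.19 CPM to 2.39 and 1.76 CPM. Of 8 senescence genes SAG13 (2.79) and SAG29 (2.62) were called higher and NAC6 (-1.26) lower, while SAG12, the usual marker of senescence, had 0 counts in all libraries. Root markers gave 2 higher calls of 10, PRP3 (1.21) and CASP5 (1.27), and a lower call for the nitrate transporter NRT2:1, from 4.6 and 4.14 CPM to 0.955 and 1.15 CPM. CASP5 lost its call without wild type replicate 1 (adjusted p = 0.111), wild type replicate 2 (0.0741) and *fio1-2* replicate 2 (0.0985), in a range of 0.00742 to 0.111.

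**Figure D5:**
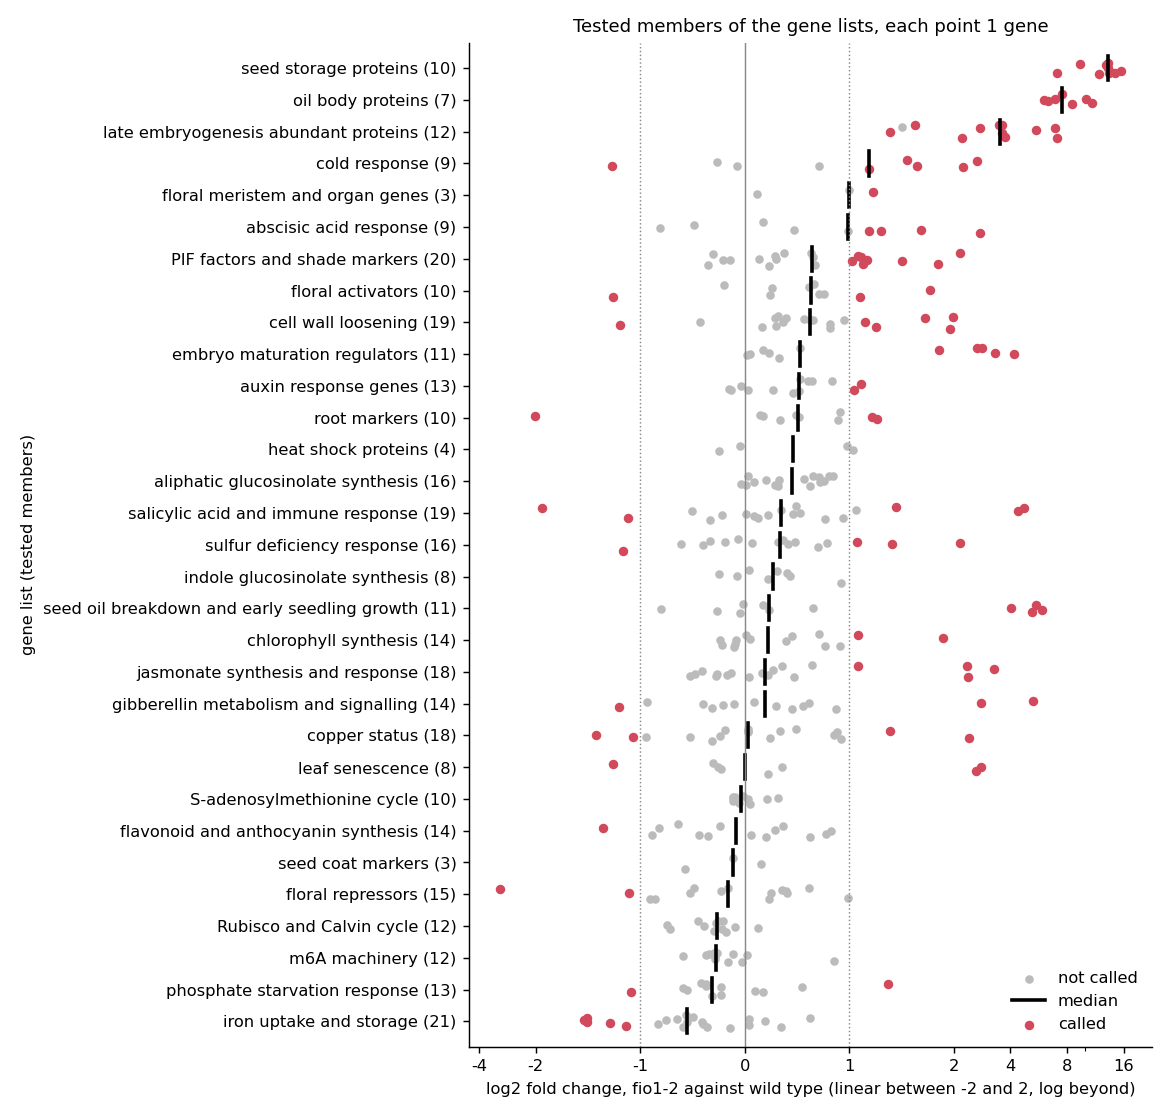
Log2 fold change of fio1-2 against wild type, linear from -2 to 2 and compressed beyond, for each tested member of the gene lists, with called members in colour and the list median as a bar. Of the 31 lists drawn, which leave out the 5 gene families chosen after values were seen, the seed storage list has the highest median, 13.25 (12.90 with genes at 0 counts at their bounds), and the iron list the lowest, -0.56.

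Genes that were well expressed in wild type and rose in *fio1-2* were also looked at, a choice made after values were seen. Of the genes called higher, 116 had a wild-type mean of at least 10 CPM. LTP2, a lipid transfer protein of the epidermis, showed the largest change, from 67.6 and 66.7 CPM in wild type to 505 and 509 CPM in *fio1-2* (log2 fold change 2.92 ± 0.06), with *fio1-1* at 182 and 165 CPM and a direct difference of 1.55. AT1G62290, annotated as a saposin-like aspartyl protease, was at 18.4 and 13.5 CPM in wild type and at 64.4 and 65.8 CPM in *fio1-2* (2.05 ± 0.11). In *fio1-1* it stayed at 14.7 and 16.9 CPM, and the direct difference was 2.05 (adjusted p = 1.85e-24). AT1G65370, a TRAF-like gene, rose from 14.4 and 12.5 CPM to 74.2 and 73.4 CPM, and NRT1.5, a nitrate transporter, from 21.4 and 22.8 CPM to 78.1 and 88.3 CPM.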

How the data were processed

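The deposited values were unnormalised counts of reads on each gene. Per the labels and methods, the authors used Trim Galore 0.6.3 for trimming, HISAT2 2.1.0 for alignment to TAIR10 and HTSeq 0.9.1 for counting. Whether strand was used in counting is not given in the sources used here, and reads shared by near-identical genes may be lost or split. Besides the pairs named in the text, TIP3;1, LEA7, RAB18, EEL, CYP81D11, OPR2, LHCB2.3, CH1, RCA, CSD1, YSL2, bHLH38, WRKY40 and SPL5 overlap an annotated gene on the opposite strand. The authors' own limma tables of fold changes, which hold fold changes and p-values against wild type, were not used.

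Of 32833 listed genes, 21268 passed filterByExpr. Counts were scaled with TMM factors and all 6 libraries entered a limma-voom fit without covariates, which left 3 residual degrees of freedom. The spread of each gene was moderated towards that of all tested genes, with 62.1 prior degrees of freedom, on which the small p-values largely rest. In this fit *fio1-2* was compared with wild type and, directly, with *fio1-1*. Both alleles share the wild-type libraries in their contrasts against it. An exact permutation test, two-sided, cannot fall below p = 0.333 with groups of 2 and was not made. Library totals were 9717111 and 10344511 (wild type), 10260837 and 10102640 (*fio1-1*) and 10439119 and 13055457 (*fio1-2*). Where a group had 0 counts, the fold is a lower bound against 3 counts summed over the group (0.149 CPM in wild type and in *fio1-1*, 0.127 CPM in *fio1-2*). Ratios of 1 to 3 counts carry an exact 95% interval, and neither bounds nor intervals include more than counting error, as reads had no molecular identifiers.

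The members and gene lists were chosen with earlier results of these data known, and lists are described by counts and medians with no set test. Named were FIO1, the 12 largest changes in each direction at a mean of at least 1 CPM with no overlap of the groups, the 6 largest at a mean of at least 50 CPM, called list members, list-defining genes at 0 counts and members near the fold minimum, and runs of neighbouring called genes. Gene names, positions and promoter sequence came from the RefSeq annotation of TAIR10.1, which matched 21226 tested genes. Guide sequences came from the study's table. Alternatives were other scalings and filters, edgeR, DESeq2, treat, a replicate block, 4 libraries only and each library left out. Scripts were tested on simulated data. The software was DESeq2 1.42.0, edgeR 4.0.16 and limma 3.58.1 under R 4.3.3.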

Additional observations from a re-analysis of the deposited data

Results flagged for a closer look

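In 14 members of the gene lists the 2 alleles lay on opposite sides of wild type, each past the adjusted p, and *fio1-2* and *fio1-1* differed from each other past both thresholds in the direct test. The contrasts against wild type share the wild-type libraries, so only the direct difference, *fio1-2* minus *fio1-1* on the log2 scale, is given as a test. Among copper genes it was -2.71 for CSD2, -1.96 for CCS, -1.95 for CSD1, 1.92 for FSD1, 1.88 for YSL2 and 1.47 for the zinc transporter gene ZIP2. Among iron genes it was -3.32 for AT3G12900, -1.42 for the ferric reductase gene FRO2 and -1.35 for the transporter gene IRT1. Among sulfur deficiency genes it was 2.82 for LSU3 and 1.05 for AT1G04770. It was also 1.21 for CYP79F1 of aliphatic glucosinolate synthesis, 1.19 for the defence gene PR5 and 1.65 for the root hair expansin EXPA18.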

How the results depend on the processing

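No named gene changed direction under the alternatives run, and of the 170 called genes among them, the called members of 5 gene families included, 151 kept the call under every alternative other than treat, which tests against a log2 fold change of 1 and took the call from 52. Against wild type, treat left 267 higher and 114 lower calls, and the adjusted p alone gave 3485 and 3426. Against *fio1-1*, where 454 were called higher and 116 lower, treat left 147 and 19, the adjusted p alone gave 1981 and 1863, and DESeq2 called 55 lower. Over the list members treat left 55 higher and 6 lower. With a library left out in turn, the calls against wild type ranged from 741 to 922 higher and 336 to 368 lower, those against *fio1-1* from 344 to 470 higher and 83 to 123 lower, and those of list members from 79 to 87 higher and 17 to 20 lower. Some list medians changed sign. Over the members tested with all 6 libraries, that of heat shock proteins was 0.46, and -0.26 without wild type replicate 1, that of seed coat markers was -0.12, and 0.01 without wild type replicate 2, and that of leaf senescence ranged from -0.08 to 0.02. With no low-count filter, which adds members, the medians were -0.08 for heat shock proteins and 0.18 for seed coat markers. Without *fio1-1* replicate 2, which also changes the members tested, that of heat shock proteins was -0.05. None of 4 heat shock genes was called with all libraries, 1 was called higher when either wild-type library was left out, and 2 without *fio1-2* replicate 2. DESeq2 called 673 higher and 287 lower against wild type, and edgeR 920 and 355. The labels do not say whether the numbers of the replicates pair the samples. The correlations of same-numbered deviations were 0.0003, -0.0043 and -0.028, but counting noise in the deviations could hide a shared effect. The replicate block gave 870 higher and 347 lower calls against wild type and 437 and 108 against *fio1-1*. It took the call from AGL42, SPL5, YUC9 and UGT73C6 among the named genes. Leaving out a library leaves 1 sample in a group, which is then assumed to vary like the others. Levels under about 1 CPM rest on few counts, which limits the regulators FUS3, LEC1 and LEC2 and the gene FT.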
